A study of Mus musculus with 6 samples.

Results

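Keratins are the intermediate filament proteins of epithelial cells, and a filament is built from equal parts of an acidic type I and a basic type II keratin. The 10 keratins described here are those that resting interfollicular epidermis is known to make little of. Krt6a and Krt6b (type II) with Krt16 and Krt17 (type I) are wound keratins, which keratinocytes switch on at wound edges, in inflamed skin and in hair follicles. Krt7 and Krt8 (type II) with Krt18, Krt19 and Krt23 (type I) are keratins of simple, one-layered epithelia, and several of them also mark periderm, Merkel cells or hair follicle cells. Krt79 (type II) marks the infundibulum and the sebaceous duct of the mouse hair follicle. The members were taken by gene symbol from the deposited table, and all 10 were found among its 24354 genes, beside 42 keratin genes that are not members.

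The expression of these genes was measured by RNA sequencing of basal epidermal cells sorted for high surface α6 integrin from mouse embryos at E18.5. The libraries came from 3 Pik3ca H1047R/H1047R samples, which carry an activating change in the catalytic PI3K subunit on both alleles, and from 3 wild-type (WT) samples, all with the strain label C57BL6. The sources used here name no promoter, Cre driver or treatment, and do not tell whether each sample was a different animal, so p-values reflect the variation among these libraries, which could be technical only. Values are FPKM, fragments per kilobase of transcript scaled to a library total, as the authors deposited them. Read numbers behind them are unknown, and the authors' interval around each value is given where it bears on a result.

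Mutant and WT libraries were compared with limma on log2(FPKM + 1) across the 11385 genes averaging 1 FPKM or more, with p adjusted by Benjamini-Hochberg and called under 0.05. Pik3ca was at 6.65 ± 0.602 FPKM in mutant and 9.04 ± 0.415 FPKM in WT libraries (SD, n = 3 each; log2 fold change -0.395, SE 0.0769, limma adjusted p = 0.00433), and its call ended once all libraries were given an equal total FPKM (adjusted p = 0.589). The basal markers Krt5 and Krt14 were at 11360 to 13033 and 7792 to 9369 FPKM in mutant libraries. In WT libraries they were at 11888 to 12194 and 9828 to 10682 FPKM. Both were thus abundant in each library, and the purity of the sorted cells was not tested. Summed FPKM lay between 538627 and 651769 in mutant and between 656761 and 767148 in WT libraries. Making library totals equal moved the median log2 fold change of all genes to 0.303, against 0.01 for the values as deposited, and 54.6% of genes were then called, 47.2% as higher and 7.4% as lower. Mutant replicate 1 stood apart from the other mutant libraries in 3 of the 5 simple keratins (Krt8, Krt18 and Krt19). Their fold changes or ratios of means are given with and without it.

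Of the 8 members that passed the filter on low values, 7 were called, 3 higher (Krt6a, Krt8 and Krt79) and 4 lower (Krt16, Krt17, Krt7 and Krt23) in mutant libraries. Among all genes tested 46% were called, 23.2% as higher and 22.8% as lower. The groups did not overlap for 5 of the 8 tested members, 3 higher and 2 lower, against 56% of all genes tested (29.1% higher and 26.9% lower). The median log2 fold change of the tested members was -0.08, beside 0.01 for all genes tested. Krt18 was tested and not called. Krt6b and Krt19 had means of 0.962 and 0.871 FPKM, and with all libraries they were tested only without the filter. Krt6b also passed the filter with any WT library left out, through its mutant values. With values as deposited, the partners in a wound keratin pair thus differed in opposite directions between the groups, and so did the type II simple keratins Krt7 and Krt8.

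**Figure D1:**
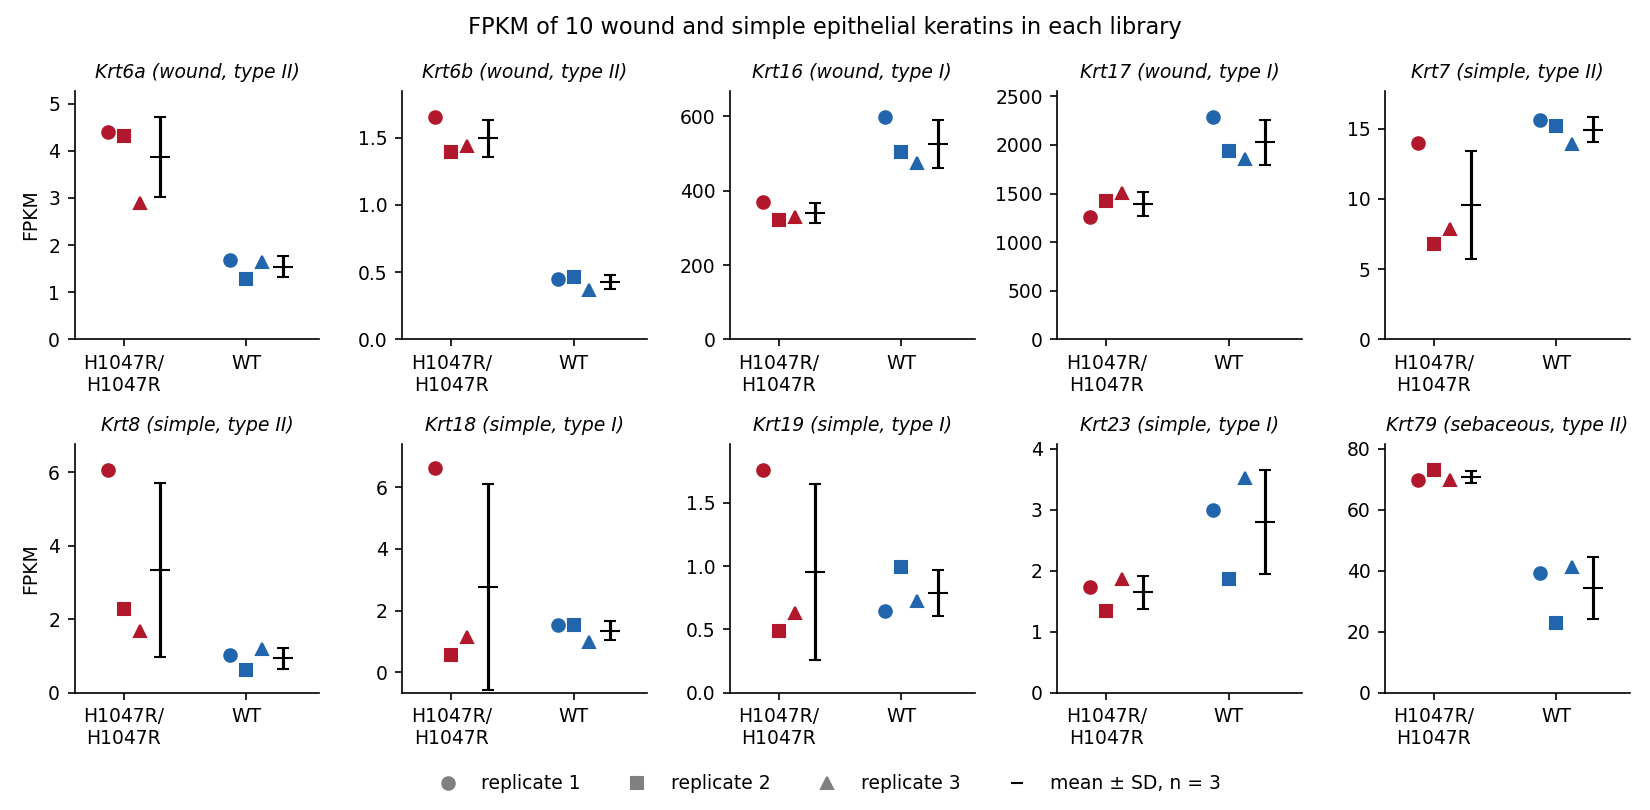
FPKM of each keratin (vertical axis, linear, a scale of its own in each panel) in the 3 Pik3ca H1047R/H1047R libraries (red, left) and the 3 WT libraries (blue, right), with mean ± SD (n = 3) in black. Krt6a, Krt6b, Krt8 and Krt79 lie higher and Krt16 and Krt17 lower in all mutant libraries than in any WT library, and replicate 1 of the mutant stands alone for Krt18 at 6.61 FPKM.

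Krt6a, the type II wound keratin whose protein pairs with those of Krt16 and Krt17, was higher in mutant libraries but low in both groups. It was measured at 4.4, 4.31 and 2.90 FPKM in mutant replicates 1 to 3, against 1.69, 1.29 and 1.65 FPKM in the WT libraries. All mutant values lay above all WT values, with a ratio of means of 2.51. The log2 fold change was 0.93 (SE 0.141, limma adjusted p = 0.00144), with p = 0.1 in an exact two-sided permutation test, which cannot go lower with 3 libraries a group. The call was kept in 15 of 15 alternatives that tested it (adjusted p = 3.6e-05 to 0.00827). At this level Krt6a ranked between 8828 and 9660 of 24354 genes in mutant libraries and between 10584 and 10944 in WT libraries. The authors' interval around a Krt6a value reached 41.5% to 46.9% to either side in mutant libraries and 56.1% to 60.7% in WT libraries.

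Krt6b, the neighbouring copy with the same partners, was lower still and also higher in mutant libraries. Its values were 1.65, 1.40 and 1.44 FPKM in the mutant libraries, against 0.453, 0.461 and 0.371 FPKM in the WT libraries. The ratio of means was 3.5 and the groups did not overlap (exact permutation p = 0.1, two-sided). Without the filter on low values the log2 fold change was 0.80 (SE 0.0648, limma adjusted p = 0.00042), in a fit that called 27.9% of 18122 genes, 13.8% as higher and 14.1% as lower.

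Krt6b (15:101676023-101680289, minus strand) and Krt6a (15:101689928-101694305, minus strand) are 9638 bases apart on GRCm38, and their coding sequences differ at 37 of 1659 aligned bases, an identity of 97.8%. The longest identical coding run has 280 bases. Of all 50-base windows of the Krt6a transcript, 43.6% occur letter for letter in Krt6b, so reads of the copies can be split or swapped between them and the value of each is uncertain. The 60 coding bases where the copies differ most (bases 817 to 876 of either coding sequence, from the GENCODE M21 transcripts) are printed because reads across them can tell the copies apart, with the 10 differing bases in capitals.
Krt6a: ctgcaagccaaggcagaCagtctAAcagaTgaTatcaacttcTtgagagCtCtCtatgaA
Krt6b: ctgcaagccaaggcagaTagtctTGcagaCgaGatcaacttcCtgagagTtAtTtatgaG
The ratio of Krt6a to Krt6b within a library was 2.66, 3.09 and 2.01 in the mutant libraries and 3.73, 2.80 and 4.45 in the WT libraries. These ranges overlap, and the copies were both higher in mutant libraries.

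Krt16, the type I wound keratin, was abundant in both groups and lower in mutant libraries. It stood at 371, 322 and 328 FPKM in mutant replicates 1 to 3, against 598, 505 and 475 FPKM in the WT libraries. The groups did not overlap, and the mutant mean was 0.647 of the WT mean. The log2 fold change was -0.62 (SE 0.108, limma adjusted p = 0.00254; exact permutation p = 0.1, two-sided). The call was kept in all 16 alternatives, at an adjusted p = 0.0495 and a log2 fold change of -0.293 with library totals made equal, which was -0.595 relative to the median gene. Of its 50-base windows, 25.2% occur in the pseudogene Gm11597 and 12.4% in Krt14, a far more abundant keratin, so some Krt16 reads may belong elsewhere.

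Krt17, the type I keratin of wound edges and of hair follicles, was the most abundant member and was also lower in mutant libraries. Its level was 1261, 1426 and 1504 FPKM in the mutant libraries, against 2285, 1939 and 1854 FPKM in the WT libraries. The highest mutant value was under the lowest WT value (exact permutation p = 0.1, two-sided), with means of 1397 ± 124 and 2026 ± 229 FPKM (SD, n = 3 each). The log2 fold change was -0.53 (SE 0.129, limma adjusted p = 0.0114). The direction turned under quantile normalization (0.153, adjusted p = 0.271), and the call ended with library totals made equal (-0.203, adjusted p = 0.0594; -0.505 relative to the median gene) and with a block on the replicate number (-0.534, adjusted p = 0.0857). The authors' interval around Krt17 reached 66.6% to 72.3% to either side in mutant and 79.7% to 88.7% in WT libraries. Only 3.66% of its 50-base windows occur in Krt14. Krt17 ranked between 65 and 84 among all genes in mutant libraries and between 77 and 89 in WT libraries.

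**Figure D2:**
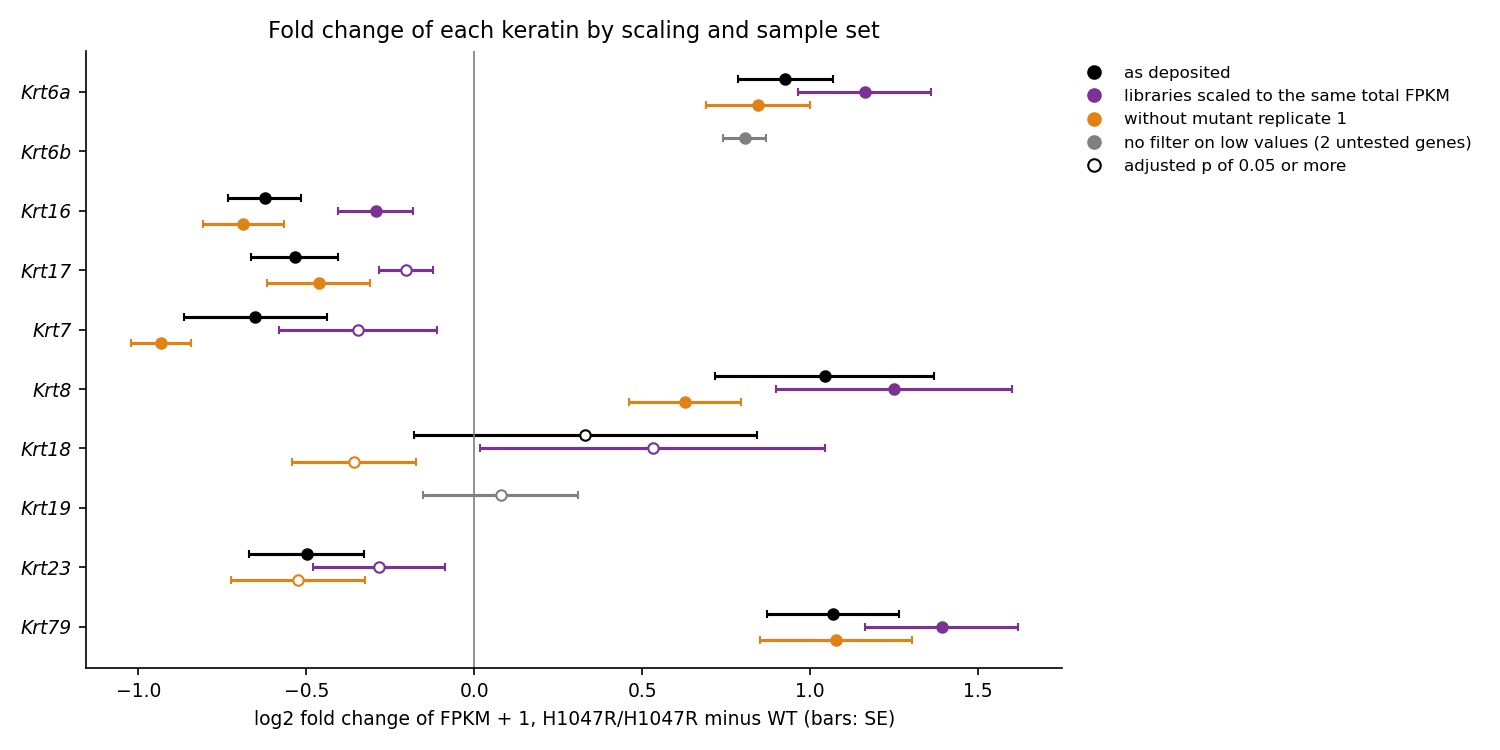
Log2 fold change of FPKM + 1 (horizontal axis, Pik3ca H1047R/H1047R minus WT, bars show the SE) for each keratin with values as deposited, with libraries scaled to the same total FPKM, and without mutant replicate 1; Krt6b and Krt19 are shown without the filter on low values, and open points have an adjusted p of 0.05 or more. Krt6a, Krt8 and Krt79 stay to the right of 0 and Krt16, Krt17, Krt7 and Krt23 to the left in all of these, while Krt18 changes side without mutant replicate 1.

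Ratios within a library do not depend on how libraries were scaled to each other. They show how the partners differed relative to each other, and not the direction of either. The level of Krt16 was 84.3, 74.5 and 113 times that of Krt6a in the mutant libraries, against 354, 392 and 288 times in the WT libraries. For Krt17 the ratio to Krt6a was 287, 331 and 519 in the mutant libraries, against 1355, 1504 and 1123 in the WT libraries. Both ratios were lower in every mutant library than in any WT library, by 1.94 and 1.85 on the log2 scale. In both groups the type I wound keratins thus exceeded Krt6a and Krt6b together by far, and these type II copies held at most 0.025% and 0.0092% of the summed FPKM of type II keratins.

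As a share of all keratin FPKM, which sums 52 genes, the 4 wound keratins made up 4.32%, 4.86% and 4.75% in the mutant libraries, against 9.18%, 8.16% and 7.66% in the WT libraries. Nearly all of this was Krt17 and Krt16. Krt17 held 7.10 ± 0.678% of type I keratin FPKM in mutant and 11.9 ± 0.928% in WT libraries, and Krt16 held 1.73 ± 0.123% and 3.09 ± 0.271% (SD, n = 3 each). The keratin sum itself was higher in mutant libraries, at 36045 to 38643 FPKM against 29992 to 31434 FPKM in WT libraries, with Krt1 and Krt10, the keratins of spinous cells, at 5164 to 6464 and 5266 to 6649 FPKM in mutant libraries and 1288 to 1609 and 1451 to 1866 FPKM in WT libraries. Against Krt5 and Krt14 alone, the wound keratins came to 8.55 ± 0.461% in mutant and 11.5 ± 1.10% in WT libraries (SD, n = 3 each). The type II sum over the type I sum was 0.901, 0.916 and 0.901 in the mutant libraries and 0.769, 0.825 and 0.808 in the WT libraries. No test was made of these shares.

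**Figure D3:**
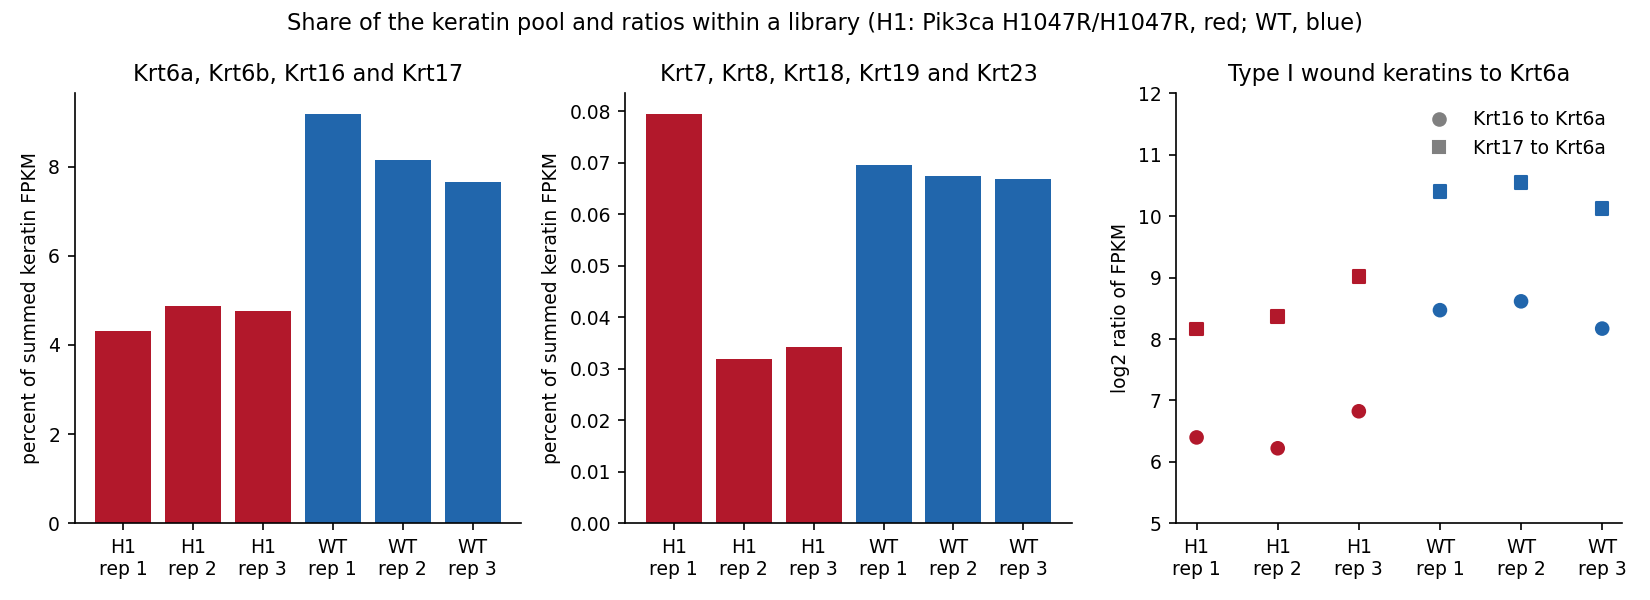
Share of summed keratin FPKM held by the wound keratins (left) and by the simple keratins (middle), in percent, and log2 ratio of Krt16 and of Krt17 to Krt6a (right), for each library, with Pik3ca H1047R/H1047R in red on the left and WT in blue. The wound share is 4.32% to 4.86% in mutant and 7.66% to 9.18% in WT libraries, and the simple share of mutant replicate 1 (0.0795%) stands above the other mutant libraries (0.0319% and 0.0341%).

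The simple keratins were low, and 1 mutant library held more of them than the others. Krt8, the type II partner of Krt18 in simple epithelia and Merkel cells, was at 6.05, 2.29 and 1.68 FPKM in mutant replicates 1 to 3, against 1.01, 0.620 and 1.18 FPKM in the WT libraries. The groups did not overlap, and the log2 fold change was 1.04 (SE 0.325, limma adjusted p = 0.0313; exact permutation p = 0.1, two-sided). Without mutant replicate 1 the ratio of means was 2.12, against 3.57 with it, and the call was kept (log2 fold change 0.63, adjusted p = 0.0229). It was lost without WT replicate 1 (adjusted p = 0.0646), without WT replicate 2 (0.0869) and without the filter on low values (0.071). The summed level of 16 Merkel cell markers was also higher in each mutant library (4.90 to 5.89 FPKM) than in any WT library (3.22 to 3.77 FPKM). The largest part of that sum was Ncam1, at 2.71, 3.16 and 2.23 FPKM in mutant and 1.72, 1.91 and 1.94 FPKM in WT libraries. Of the 50-base windows of Krt8, 26.9% occur in its pseudogene Krt8-ps.

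Krt18, the type I partner, was at 6.61, 0.547 and 1.14 FPKM in the mutant libraries, against 1.54, 1.52 and 0.983 FPKM in the WT libraries. Replicate 1 of the mutant was 7.82 times the mean of the other mutant libraries, of which replicate 2 lay under the WT range and replicate 3 within it. The authors' interval for that library (3.74 to 9.48 FPKM) did not meet those of the other mutant libraries (0.065 to 1.03 and 0.316 to 1.97 FPKM). With all libraries the log2 fold change was 0.33 (SE 0.511, limma adjusted p = 0.622), and without mutant replicate 1 it was -0.357 (adjusted p = 0.168). The ratio of Krt18 to Krt8 was 1.09, 0.239 and 0.681 in the mutant libraries and 1.52, 2.45 and 0.836 in the WT libraries.

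Krt19, a type I keratin of simple epithelia and of the hair follicle bulge, followed the same libraries. It was at 1.75, 0.485 and 0.626 FPKM in the mutant libraries, against 0.647, 0.990 and 0.724 FPKM in the WT libraries. Mutant replicate 1 was 3.16 times the mean of the other mutant libraries, and the groups overlapped. The ratio of mutant to WT means was 1.21 with that library and 0.706 without it. Without the filter on low values the log2 fold change was 0.08 (SE 0.231, limma adjusted p = 0.838).

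Krt7, a type II keratin of glandular and ductal epithelia, was the most abundant of the simple keratins. It was at 14.0, 6.82 and 7.88 FPKM in the mutant libraries, against 15.6, 15.2 and 13.9 FPKM in the WT libraries. Replicates 2 and 3 of the mutant lay under the whole WT range and replicate 1 within it. The log2 fold change was -0.65 (SE 0.213, limma adjusted p = 0.037; exact permutation p = 0.2, two-sided), and without mutant replicate 1 it was -0.933 (adjusted p = 0.000315). The call ended with library totals made equal (-0.346, adjusted p = 0.23; -0.649 relative to the median gene), without the filter on low values (adjusted p = 0.0819) and without any of the other 5 libraries (adjusted p = 0.053 to 0.116).

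Krt23, a type I keratin of secretory and other simple epithelia, was at 1.73, 1.34 and 1.86 FPKM in the mutant libraries and 3.0, 1.86 and 3.52 FPKM in the WT libraries. WT replicate 2 fell within the mutant range, so the groups overlapped. The log2 fold change was -0.50 (SE 0.172, limma adjusted p = 0.0449; exact permutation p = 0.2, two-sided), and the call was lost in 8 of 15 alternatives, with an adjusted p of up to 0.24. These were equal library totals, library weights, no filter, and leaving out any library but WT replicate 2.

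The promoters of Krt7 and Krt8 are printed because these type II genes of 1 cluster differed in opposite directions (RefSeq, GRCm38.p6; 250 bases before to 50 after the start). Capitals mark matches to the motifs searched. Promoters of 5 members were matched by symbol, those of Krt7, Krt8, Krt18, Krt23 and Krt79.
Krt7 (15:101412153-101412452, plus strand): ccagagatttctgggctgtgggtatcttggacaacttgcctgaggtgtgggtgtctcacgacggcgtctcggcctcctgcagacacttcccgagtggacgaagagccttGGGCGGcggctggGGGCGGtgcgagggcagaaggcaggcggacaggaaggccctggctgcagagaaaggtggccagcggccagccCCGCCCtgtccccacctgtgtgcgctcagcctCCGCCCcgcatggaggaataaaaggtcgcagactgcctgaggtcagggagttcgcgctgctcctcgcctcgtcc
Krt8 (15:102004293-102004592, minus strand): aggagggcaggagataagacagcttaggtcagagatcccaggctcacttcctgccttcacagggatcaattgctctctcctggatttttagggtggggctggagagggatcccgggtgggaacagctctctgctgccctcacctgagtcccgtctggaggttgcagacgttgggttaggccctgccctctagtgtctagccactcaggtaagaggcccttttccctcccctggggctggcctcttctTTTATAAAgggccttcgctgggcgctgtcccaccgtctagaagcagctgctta
Searched on both strands were AP-1 (TGANTCA), TEAD (GGAATG), ETS (CCGGAA), FOXO (TGTTTAC), the antioxidant response element (TGACNNNGC), Sp1 (GGGCGG) and the TATA box (TATAAA). Krt7 held 4 Sp1 matches, a motif found in 35.7% of 32851 promoters of this length. Krt8 held overlapping TATA box matches on either strand, with first bases at -3 and -1, so they span the annotated start. That motif was found in 13.6% of promoters. The other 3 promoters held no match, and the remaining motifs, which 3.65% to 14.9% of promoters hold, were absent from all 5. A match is a description of letters only.

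Genes of simple epithelia and periderm gave a mixed picture beside these keratins. The shares of all genes tested were 23.2% higher and 22.8% lower, or 47.2% and 7.4% with equal totals. Of 13 tested genes of simple epithelia, 2 were higher and 6 lower, with a median log2 fold change of -0.23, but 4 were higher and 2 lower with library totals made equal and 3 and 3 under quantile normalization. Of 6 tested genes of periderm and its formation, 1, the transcription factor Grhl3, was higher and 5 lower, with a median of -0.65 (1 and 3 with equal totals, 3 and 4 without the filter on low values, and 2 higher without any 1 of the WT libraries). Krt13, a periderm keratin, was under the filter with all libraries. With a WT library left out it passed the filter through its mutant values and was the added higher gene. It was at 1.89, 1.42 and 1.28 FPKM in mutant and 0.681, 0.348 and 0.254 FPKM in WT libraries. The claudin Cldn4, in both lists, was at 47.7 ± 2.39 FPKM in mutant and 131 ± 12.2 FPKM in WT libraries (limma adjusted p = 1.24e-05). The cadherin Cdh1 was at 232 ± 6.82 FPKM in mutant and 348 ± 16.4 FPKM in WT libraries (limma adjusted p = 0.000465; above the threshold under 2 of 16 alternatives). The protease inhibitor gene Spint1 was higher, at 20.6 ± 0.902 against 15.9 ± 0.226 FPKM (SD, n = 3 each).

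In mutant replicate 1, a few other low genes of these lists moved with Krt8, Krt18 and Krt19. The claudin Cldn3 was at 1.16 FPKM there, against 0.082 and 0.092 FPKM in the other mutant libraries, Lcn2 (lipocalin 2) at 1.08 against 0.134 and 0.15 FPKM, and the periderm claudin Cldn6 at 0.704 against 0.201 and 0.3 FPKM. Of the 16 simple epithelial genes 2, and of the 10 periderm genes 1, were at least 2-fold above both other mutant libraries, beside 1.93% of the genes that reached 0.1 FPKM in a mutant library. That share is a lower bound, because genes at 0 in both other mutant libraries were not counted as 2-fold. It also pools genes of all levels. The summed level of the simple epithelial list did not stand apart, at 1167, 1182 and 1287 FPKM in the mutant libraries and 2022 to 2187 FPKM in the WT libraries. The endothelial markers Pecam1, Cdh5 and Kdr also passed 2-fold in that library, at 0.709, 0.461 and 0.233 FPKM, within the WT range. The melanocyte marker Sox10 did too, at 1.72 FPKM against 0.487 and 0.214 FPKM in the other mutant libraries, and it was above the WT libraries too, at 0.518, 0.264 and 0.319 FPKM.

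Markers of Merkel cells, which express Krt8 and Krt18, were low, and several were higher in mutant libraries, as Krt8 was. Of 16 Merkel markers 14 were above 0 in a library. Of these, 7 lay higher in every mutant library than in any WT library (Atoh1, Insm1, Isl1, Ncam1, Pou4f3, Snap25 and Sox2) and 1 lower (Piezo2), beside 21.1% higher and 20.9% lower among the 18122 genes above 0 in a library. Without the filter on low values, limma called 5 of them higher and 0 lower, beside 13.8% and 14.1% of the genes tested. Krt20, a keratin of Merkel cells, was at 0.152, 0.101 and 0.113 FPKM in the mutant libraries and at 0, 0.128 and 0.082 FPKM in the WT libraries. Atoh1, their defining transcription factor gene, was at 0.255, 0.208 and 0.233 FPKM in mutant and 0.143, 0.088 and 0.125 FPKM in WT libraries. Insm1, a neuroendocrine transcription factor gene, was at 0.31, 0.17 and 0.225 FPKM in mutant and 0.038, 0.059 and 0.084 FPKM in WT libraries. Both were under 1 FPKM in all libraries. Sst and Vip were at 0 in every library. The sum of the list lay between 4.90 and 5.89 FPKM in mutant and between 3.22 and 3.77 FPKM in WT libraries. Ncam1 was its largest part. Of the 12 that reached 0.1 FPKM in a mutant library, 0 were 2-fold higher in mutant replicate 1. With the filter only Ncam1, an adhesion molecule gene, was tested, and it was called higher, at 2.71, 3.16 and 2.23 FPKM in mutant and 1.72, 1.91 and 1.94 FPKM in WT libraries (limma adjusted p = 0.0267; above the threshold under 6 of 15 alternatives, among them without mutant replicate 1 or 2 and without WT replicate 1 or 2). In sorted bulk cells, a change in the share of cells that express a gene and a change of RNA per cell cannot be told apart, and the part of Merkel or other cells in the values of Krt8 and the other simple keratins was not tested.

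**Figure D4:**
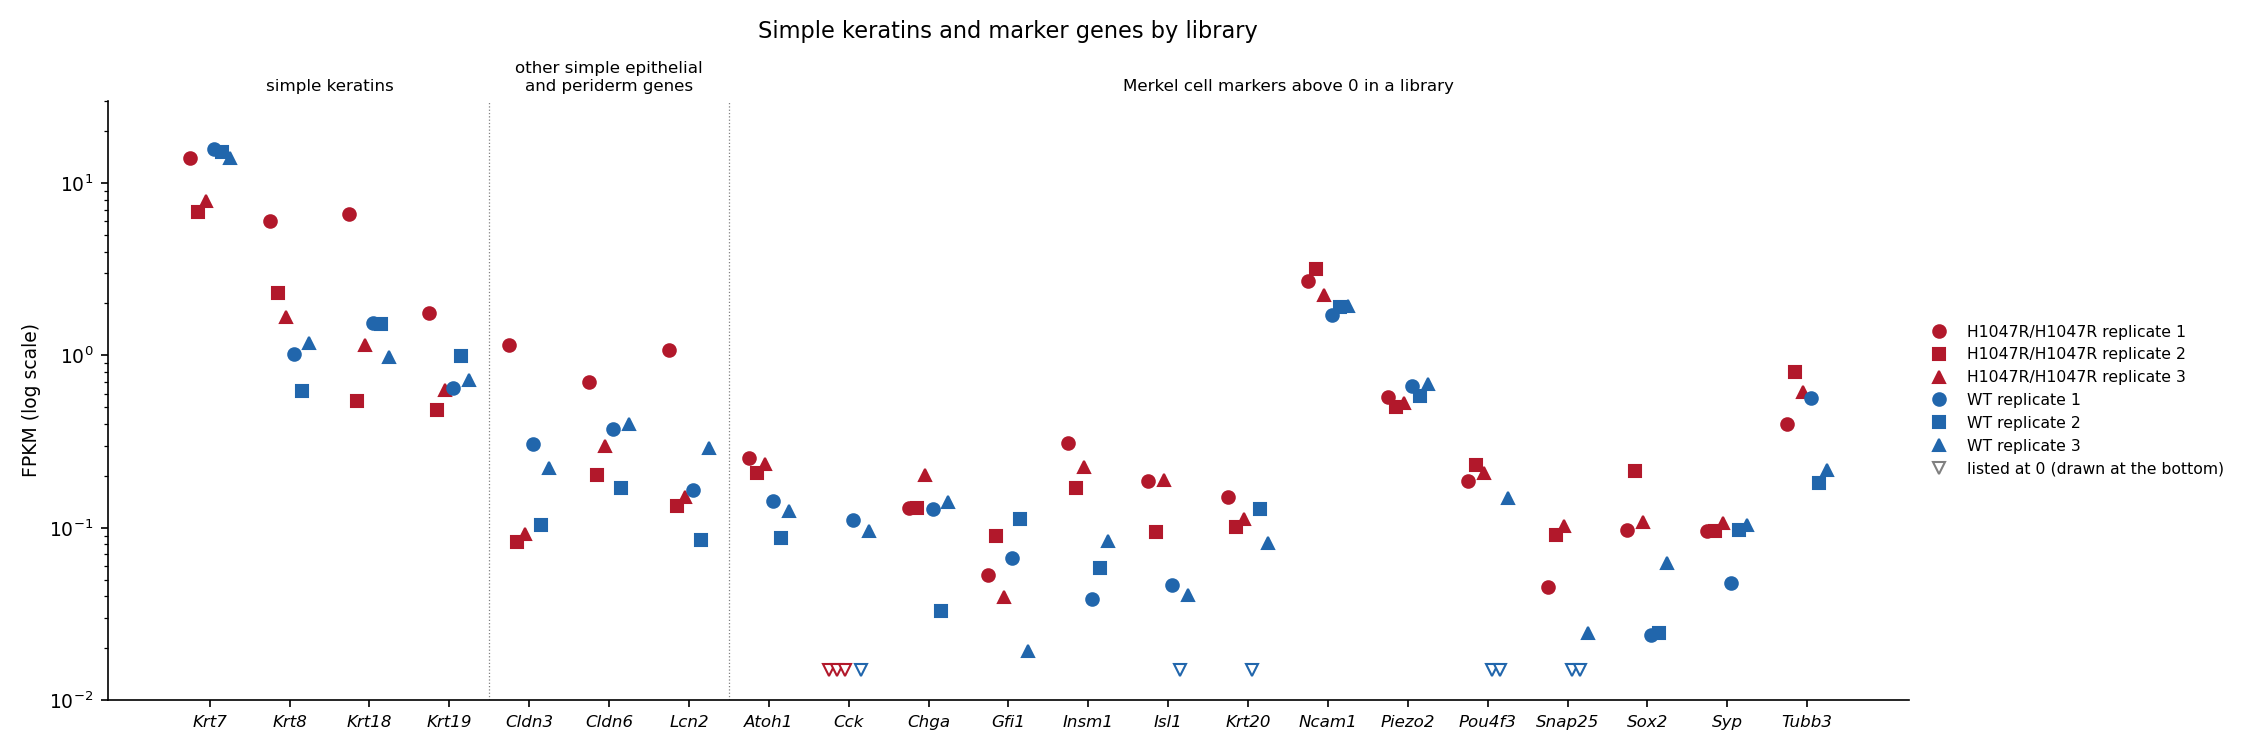
FPKM on a log axis of 4 simple keratins, of 3 other genes of simple epithelia or periderm and of the 14 Merkel cell markers above 0 in a library (Pik3ca H1047R/H1047R in red on the left of each gene, WT in blue, symbol by replicate; an open triangle marks a gene listed at 0). Mutant replicate 1 (red circle) stands above the other mutant libraries for Krt8, Krt18, Krt19, Cldn3, Cldn6 and Lcn2, and 7 Merkel markers, among them Atoh1 and Ncam1, lie higher in all mutant libraries than in any WT library, whereas Piezo2 lies lower.

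Krt79, the keratin of the infundibulum and sebaceous duct, was higher in mutant libraries. It was at 69.7, 72.9 and 69.7 FPKM in the mutant libraries, against 39.2, 22.7 and 41.1 FPKM in the WT libraries. The groups did not overlap, with means of 70.7 ± 1.85 and 34.3 ± 10.1 FPKM (SD, n = 3 each) and a ratio of means of 2.06. The log2 fold change was 1.07 (SE 0.196, limma adjusted p = 0.00332; exact permutation p = 0.1, two-sided), and the call was kept in all 16 alternatives. None of its 50-base windows occur in another gene. Of 8 tested infundibulum and sebaceous gland genes, 4 were higher and 1 lower, with a median of 0.31, beside 23.2% and 22.8% of all genes tested. Dgat2, which makes triglycerides, was at 13.6 ± 1.25 FPKM in mutant and 5.11 ± 1.21 FPKM in WT libraries (limma adjusted p = 0.000334), and the stem cell marker Lrig1 at 54.5 ± 3.33 and 41.9 ± 1.84 FPKM (limma adjusted p = 0.00296). The lipid droplet gene Plin2 was at 8.82 ± 1.38 and 5.23 ± 0.678 FPKM (limma adjusted p = 0.0036). The lower gene was Plet1, at 190 ± 21.3 FPKM in mutant and 326 ± 25.2 FPKM in WT libraries (limma adjusted p = 0.000609; SD, n = 3 each). Markers of mature sebocytes were low, with Awat2 at 0.637 to 0.926 FPKM in mutant and 0.548 to 1.06 FPKM in WT libraries.

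Hair follicle markers stood beside Krt17 and Krt79, both of which follicles express. Of 16 tested hair placode, germ and bulge markers, 10 were higher and 1 lower in mutant libraries, with a median of 0.32. The shares of all genes tested were 23.2% higher and 22.8% lower, and 47.2% higher with equal totals. Higher markers numbered 6 without mutant replicate 2, 6 with a filter at 5 FPKM and 13 with equal totals, and 2 were lower without WT replicate 2. The ligand gene Shh was at 6.72 ± 0.976 FPKM in mutant and 3.10 ± 0.250 FPKM in WT libraries (limma adjusted p = 0.000325), and the transcription factor gene Lhx2 at 17.2 ± 2.56 and 9.82 ± 0.628 FPKM (limma adjusted p = 0.000852). Foxi3, another follicle transcription factor gene, was at 9.50 ± 1.75 and 5.02 ± 0.760 FPKM (limma adjusted p = 0.00223). Sox9, a bulge transcription factor gene, was the lower member, at 23.6 ± 0.671 FPKM in mutant and 47.7 ± 4.27 FPKM in WT libraries (limma adjusted p = 4.17e-05; SD, n = 3 each). Krt75, a keratin of the companion layer, was at 0.968, 0.726 and 0.462 FPKM in mutant and 1.31, 1.17 and 0.907 FPKM in WT libraries and was not tested. The part of follicle cells in the values of Krt17 and Krt79 was not tested.

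Of the keratins that are not members, 15 of 42 were tested, with 7 higher, 1 lower (Krt25) and a median of 0.37, and 10 higher and 0 lower with limma on equal totals. Without mutant replicate 1 or 2, 4 were higher. The shares of all genes tested were 23.2% higher and 22.8% lower, or 47.2% and 7.4% with equal totals. Krt15, a basal and bulge keratin, was at 3586 ± 223 FPKM in mutant and 2546 ± 154 FPKM in WT libraries (limma adjusted p = 0.0153; above the threshold under 5 of 16 alternatives). Krt80, a keratin of differentiating cells, was at 30.5 ± 3.81 and 33.7 ± 1.82 FPKM and did not pass (limma adjusted p = 0.241). Krt2, the late spinous keratin, was at 2.20 ± 1.18 FPKM in mutant and 0.098 ± 0.065 FPKM in WT libraries (limma adjusted p = 0.00153, SD, n = 3 each). It passed the filter only through its mutant values, at 3.55, 1.40 and 1.64 FPKM in mutant replicates 1 to 3. Krt32, a hair cuticle keratin, was at 3.47 ± 0.373 FPKM in mutant and 2.29 ± 0.368 FPKM in WT libraries (limma adjusted p = 0.0125, SD, n = 3 each).

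Other genes of wound-edge and activated keratinocytes were lower more often than higher, with 11 lower and 5 higher of 24 tested (10 and 7 with equal totals) and a median log2 fold change of -0.34. The shares of all genes tested were 22.8% lower and 23.2% higher, or 7.4% and 47.2% with equal totals. The matrix protein tenascin C (Tnc) was at 19.3 ± 1.0 FPKM in mutant and 144 ± 10.1 FPKM in WT libraries. The fibronectin receptor gene Itga5 was at 10.4 ± 0.378 and 53.4 ± 2.42 FPKM, and the urokinase receptor gene Plaur at 8.41 ± 2.46 and 57.5 ± 6.81 FPKM (SD, n = 3 each; limma adjusted p = 5.71e-07 to 2.31e-05 over these 3). The 5 higher genes were Hbegf, Plau, S100a9, Sprr1b and Stfa1, chosen here because they were few.

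Of 31 transcription factors and receptors known to act on keratin genes, 11 were higher and 9 lower, with a median of 0.06 (17 and 7 with equal totals, 14 and 7 under quantile normalization). The shares of all genes tested were 23.2% higher and 22.8% lower, or 47.2% and 7.4% with equal totals. Rela, an NF-kB subunit gene, was at 70.2 ± 3.81 FPKM in mutant and 173 ± 6.80 FPKM in WT libraries (limma adjusted p = 9.68e-06), and Stat3 was at 55.1 ± 0.731 and 99.3 ± 0.636 FPKM (limma adjusted p = 2.07e-05). Ets1 was at 1.32 ± 0.061 and 17.6 ± 0.112 FPKM (limma adjusted p = 4.42e-07), whereas Zfp750, a factor of terminal differentiation, was at 42.3 ± 6.24 FPKM in mutant and 7.53 ± 0.853 FPKM in WT libraries (limma adjusted p = 8.21e-06; SD, n = 3 each). The receptor gene Egfr and the AP-1 gene Fosl1, both known to act on wound keratins and chosen after their values were seen, had log2 fold changes of -0.68 (limma adjusted p = 0.000162) and -0.72 (limma adjusted p = 0.000318). The more abundant AP-1 gene Fos went the other way (log2 fold change 0.848, limma adjusted p = 0.000589). Jun was lower (-0.333, limma adjusted p = 0.0189, above the threshold under 6 of 16 alternatives), and Junb and Jund were not called.

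Of 19 genes whose proteins bind or anchor keratin filaments, 5 were higher and 5 lower, with a median of -0.09 (8 and 3 with equal totals, 9 and 2 under quantile normalization). Without mutant replicate 1, WT replicate 1 or WT replicate 2, 3 were higher and 3 lower, and without mutant replicate 2, 3 and 2, as with a block on the replicate number. The shares of all genes tested were 23.2% higher and 22.8% lower, or 47.2% and 7.4% with equal totals. Some desmosomal plaque genes were among the higher of the list. Pkp1 was at 579 ± 37.6 FPKM in mutant and 361 ± 37.1 FPKM in WT libraries (limma adjusted p = 0.00118). Ppl (periplakin) was at 84.2 ± 9.51 and 47.0 ± 7.74 FPKM (limma adjusted p = 0.00147). The plaque genes Jup and Pkp3 were not called, with log2 fold changes of -0.057 and -0.175 (limma adjusted p = 0.577 and 0.0688). The hemidesmosomal linker gene Dst was lower, at 126 ± 9.13 and 254 ± 27.6 FPKM (limma adjusted p = 0.000142), as was the small heat shock gene Hspb1, at 154 ± 10.3 and 308 ± 24.3 FPKM (limma adjusted p = 8.17e-05; SD, n = 3 each). Of 4 tested intermediate filament genes other than keratins, 2 were higher (Lmnb1 and Lmnb2) and 2 lower (1 lower with equal totals and without mutant replicate 2 or 3). Lmna was at 515 ± 48.2 FPKM in mutant and 827 ± 30.4 FPKM in WT libraries (limma adjusted p = 0.000964), and Vim, a filament gene of mesenchymal cells, at 18.2 ± 3.54 and 31.6 ± 10.2 FPKM (limma adjusted p = 0.023; above the threshold under 4 of 16 alternatives; SD, n = 3 each).

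Markers of cells other than keratinocytes were lower where they were called, with 2 of 8 tested fibroblast markers, 2 of 3 melanocyte, 3 of 5 immune (Cd68, Fcer1g and C1qc, which macrophages express) and 2 of 4 muscle markers lower and 0 higher in limma (also 0 higher at an unadjusted p under 0.05). Among all genes tested 22.8% were called lower, and these lists are short. With equal totals, 1 fibroblast, 0 melanocyte, 0 immune and 2 muscle markers were lower, beside 7.4% of all genes. Without any 1 library other than WT replicate 3, 1 immune marker was lower, and without mutant replicate 2 or WT replicate 1, 1 fibroblast and 1 melanocyte marker were. The Langerhans cell marker Cd207 was at 0 in every library, and the T cell marker Cd3e was at 0 in all but WT replicate 3. Summed levels in mutant and WT libraries were 395 to 427 and 492 to 633 FPKM for fibroblasts, 12.3 to 16.4 and 16.8 to 23.1 FPKM for melanocytes, 8.12 to 9.54 and 11.2 to 14.8 FPKM for immune cells, and 13.0 to 14.0 and 18.8 to 31.7 FPKM for muscle. The 6 endothelial markers summed to 0.833 to 2.11 FPKM in mutant and 1.43 to 3.81 FPKM in WT libraries, and 0 of them passed the filter. Of the 6 basal keratinocyte markers 3, Itgb4, Itga6 and Col17a1, were lower and 0 higher in limma (also 0 higher at an unadjusted p under 0.05), but 1 was lower and 2 were higher with equal totals.

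Profiles most like that of a member were sought among 6184 genes averaging 10 FPKM or more, by the root mean square difference of centred log2(FPKM + 1) over the 6 libraries. The nearest to Krt6a was Grhl1, a grainyhead transcription factor gene (difference 0.0692), at 21.9, 19.6 and 16.1 FPKM in mutant and 11.1, 8.54 and 10.6 FPKM in WT libraries. The nearest to Krt16 were Ngfrap1 (0.0765) and Rnf19b (0.0792), and the nearest to Krt17 were Gabarapl2 (0.0399) and Ubxn6 (0.0409). Krt79 lay nearest to the phospholipase gene Pla2g2f (0.191) and to Egr3 (0.195), and Krt7 to Id1 (0.128) and Cdkn1c (0.206). Krt23 lay nearest to Elovl1 (0.144), and Krt8 to Rhov (0.303) and Notch3 (0.307). Krt18 had no near profile, and the closest, BC117090, differed by 0.372, with 72.6 FPKM in mutant replicate 1, 15.8 and 18.2 FPKM in the other mutant libraries and 13.1 to 18.6 FPKM in WT libraries.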

How the data were processed

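Per the file headers, the table holds an FPKM value, interval bounds and a status word for each gene in each library. The authors' FPKM came from TopHat and Cufflinks, and the notes name the build mm9, per the submitters' processing notes; versions, settings and strand handling were not stated there. The locus of 98.9% of 23315 symbols overlapped the gene of that name in GENCODE M21, so positions are read as GRCm38, with 1 added to each start. Exons of Krt6a, Krt6b, Krt7 and Krt8 overlap annotated transcripts on the other strand, whose reads may be included.

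Limma 3.58.1 (R 4.3.3; empirical Bayes with a trend) was fitted to log2(FPKM + 1) for genes averaging 1 FPKM or more, which understates changes of low genes. The procedure was tested on simulated data. Each member value carried the status word OK. Depth is unknown. Tables and figures used Python 3.11.15, pandas 2.3.3 and matplotlib 3.10.9. Members and gene lists were chosen with earlier results of these data known. From each list up to 4 genes are named, called genes first by smallest p, then by mean FPKM; of other keratins, those with at least 10 FPKM; further genes were named after their values were seen. A few genes meeting the rule are not reported here. Alternatives covered the pseudocount, the filter, scaling, variance prior, library weights, a replicate block and each library left out.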

Additional observations from a re-analysis of the deposited data

How the results depend on the processing

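Under 16 alternatives, Krt6a, Krt16 and Krt79 kept direction and call wherever tested. Krt17 turned to 0.153 under quantile normalization, and Krt18 to -0.0456 with library weights and to -0.357 without mutant replicate 1 (-0.357 to 0.792 over libraries left out). Scaling to the same total gave 5375 higher and 842 lower genes, against 2642 and 2592, and 29 lower genes of the lists, against 49; of the 7 members called, 4 remained (1 lower). The lower count of members was 2 with no filter, and a filter at 5 FPKM left 4 calls, 1 of them higher. Member counts with a WT library left out include Krt6b as higher, which then passed the filter only through its mutant values. Leaving out 1 library gave 3879 to 5108 calls (1922 to 2597 higher, 1957 to 2610 lower), 5 to 6 members (3 to 4 higher, 2 to 3 lower) and list genes of 33 to 47 higher and 37 to 50 lower. Shares of keratin FPKM, in percentage points, mutant minus WT, were then -4.02 to -3.26 for wound, -0.0349 to -0.0111 for simple keratins and 0.0589 to 0.0886 for Krt79 (0.194 over Krt5 and Krt14 only, against 0.077). Log2 ratios, mutant minus WT, were then -2.11 to -1.81 for Krt16 to Krt6a, -2.1 to -1.67 for Krt17 to Krt6a (-1.38 with lower interval bounds), -0.677 to -0.325 for Krt6a to Krt6b (-1.27 with lower bounds), -1.85 to -0.759 for Krt18 to Krt8 and 0.534 to 0.945 for Krt19 to Krt7. Same-numbered mutant and WT libraries had correlations of deviations of 0.127, 0.122 and -0.007, against -0.157 to 0.0619 for unlike numbers. These values do not decide whether the libraries were paired. The numbers were not read as pairs because the labels state no pairing. A replicate block gave 6 called members and ended the call of Krt17. The cause of these shifts was not tested. The unknown depth limits Krt6b and Krt19, whose intervals reached up to 85.1% and 92.6% of the value.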
